A study of Mus musculus with 5 samples.

Results

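Gene expression was compared between libraries whose column names end in SE and libraries whose names end in C1 or C2, within wild-type and within Tnfaip6-knockout mouse mesenchymal stem cells. What the suffixes stand for is not given in the sources used here, and nothing is assumed about it. The deposited table holds 12621 genes, and the 12484 genes with a normalised count of at least 1 in 2 or more of the 5 libraries were compared. Just outside this limit, a gene's second-highest value reached 0.987, and just inside it was 1.00.

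The wild type has 2 libraries, C1 and SE. The knockout of Tnfaip6, the gene of the secreted hyaluronan-binding protein TSG-6, has 3 libraries, C1, C2 and SE. All 5 carry the strain label Balb/c (C.129S6) and the source label of mesenchymal stem cells. The knockout allele, the tissue the cells came from, their age, their passage and any treatment are not given in the sources used here. The series' own text speaks of 2 biological replicates for each cell type, and the 5 column names carry none of the sample titles' numbers. Nothing says whether C1, C2 and SE are separate cultures or animals, and the p-values below rest on a spread that may be technical. For SE against C, that spread comes from knockout C1 against C2 and from the difference between genotypes in SE minus C. Wild-type C, wild-type SE and knockout SE have no replicate.

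Mesenchymal stem cells are stromal progenitors that can form bone, cartilage and fat, and in culture they secrete much of the matrix they grow on, including collagens, fibronectin and thrombospondins. Immediate early genes such as Fos and Egr1 are transcribed within minutes of a stimulus and make short-lived messenger RNAs. In libraries made from fragmented messenger RNA, a long transcript gives more reads than a short one at the same number of molecules, so lengths cancel when one gene is compared between libraries, unless libraries differ in how they recover long and short transcripts.

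Reads assigned to genes ranged from 13605555 to 26658725, and both SE libraries were shallower than every C library (17986301 in wild-type SE and 13605555 in knockout SE, against 21991615 to 26658725). Depth and suffix therefore cannot be told apart. Tnfaip6 itself had normalised counts of 6.04 and 3.21 in wild-type C1 and SE and 1.65, 2.38 and 1.36 in knockout C1, C2 and SE, below both wild-type libraries in each knockout library, and its difference between SE and C missed the threshold (log2 fold change -0.59, standard error 0.29, adjusted p = 0.155). Of 18 macrophage and myeloid markers 4 were in the table, with summed normalised counts of 50.1 to 94.4, while Ptprc, Itgam, Adgre1 and Spi1 were not analysed here. Endothelial markers (3 of 10) summed to 3.28 to 6.73. Among 16 surface markers of mesenchymal stem cells, Itgb1 had 1035 or more in all 5 libraries, whereas Cd34 was read in neither C nor SE libraries of the knockout, and Thy1, Lepr and Ngfr were not analysed here.

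Libraries with the suffix SE differed from C libraries of the same genotype in the same direction for a large share of genes. Among the genes called higher in SE were 13 of 18 listed collagens, 11 of 22 integrins and laminins and 9 of 13 fatty acid synthesis genes. Among those called lower were 12 of 24 immediate early genes, the Notch target Hes1, 39 of 43 cytosolic ribosomal protein genes and 26 of 29 nuclear genes of the respiratory chain. With the correction for GC content and transcript length given below, 1 of the 43 and 1 of the 29 were lower. Of the immediate early genes 7 were then lower and 1 higher, and of the integrins and laminins 6 higher and 1 lower. Collagens and fatty acid synthesis genes had 9 and 6 higher and none lower. These lists were chosen with earlier results of these data known. In a model with genotype as a block and suffix as the tested term, 2166 genes were higher in SE (17.4% of those tested) and 1932 were lower (15.5%) at an adjusted p under 0.05 (limma). The larger changes were nearly all increases: 1166 of the higher genes differed at least 2-fold, against 74 of the lower genes. In 4137 genes (33.1%) the SE value lay above every C value of the same genotype, in both genotypes. In 4618 genes (37.0%) it lay below every such value in both.

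The calls rest on few libraries. Without wild-type C1, without wild-type SE or without knockout SE no gene was called by limma, and 3251, 3270 and 1847 genes had an unadjusted p under 0.05. Each of these fits compares SE with C in 1 genotype only. Without knockout C1 there were 2034 higher and 1770 lower genes, and without knockout C2 there were 2517 and 2567.

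The differences in wild type and knockout, which share no library, had the same sign in 79.4% of genes and correlated across genes with r = 0.753. This r describes 12484 genes that are not independent of each other, and it carries no p. On principal components of the log2 values, the first component (80.4% of the variance) set the genotypes apart and the second (14.7%) set SE apart from C.

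**Figure D1:**
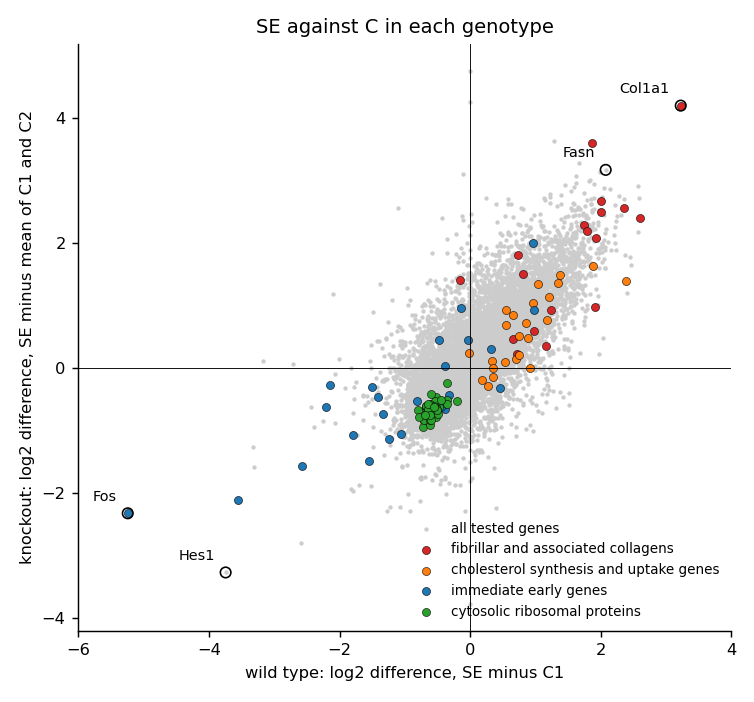
Each point is a gene, with the log2 difference of SE minus C1 in wild type on the x axis and of SE minus the mean of C1 and C2 in knockout on the y axis. Collagens lie at the upper right, immediate early genes mostly at the lower left with Fos at -5.24 and -2.32, and ribosomal protein genes in a tight group below 0 on both axes.

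The sign of the difference followed transcript length. Among genes in the shortest of 10 length bins (57 to 1183 bases) the median log2 fold change was -0.55, and 45.2% were lower in SE. In the ninth bin (4879 to 6402 bases) the median was 0.60, and 44.2% were higher. The medians climbed from bin to bin up to the ninth and were 0.58 in the last. The trend was present in wild type, from -0.54 in the shortest bin to 0.46 in the ninth, and in knockout, from -0.57 to 0.73. Between knockout C2 and C1 the medians stayed between -0.10 and 0.03 over all 10 bins. Across genes the fold change correlated with log2 length with r = 0.577, and the difference of knockout C2 minus C1 with r = 0.087. Genes higher in SE had a median transcript length of 4806 bases, genes lower in SE of 1538 bases and all tested genes of 2964 bases. Base composition moved the medians less, from -0.02 in the bin of lowest GC content to 0.16 in the highest. These pooled values hide a difference between genotypes. In wild type the medians of those bins were -0.19 and 0.22. In knockout they were 0.09 and 0.13, with -0.09 in bin 8 of 10. Knockout C2 minus C1 also moved with GC content, from -0.12 to 0.09.

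**Figure D2:**
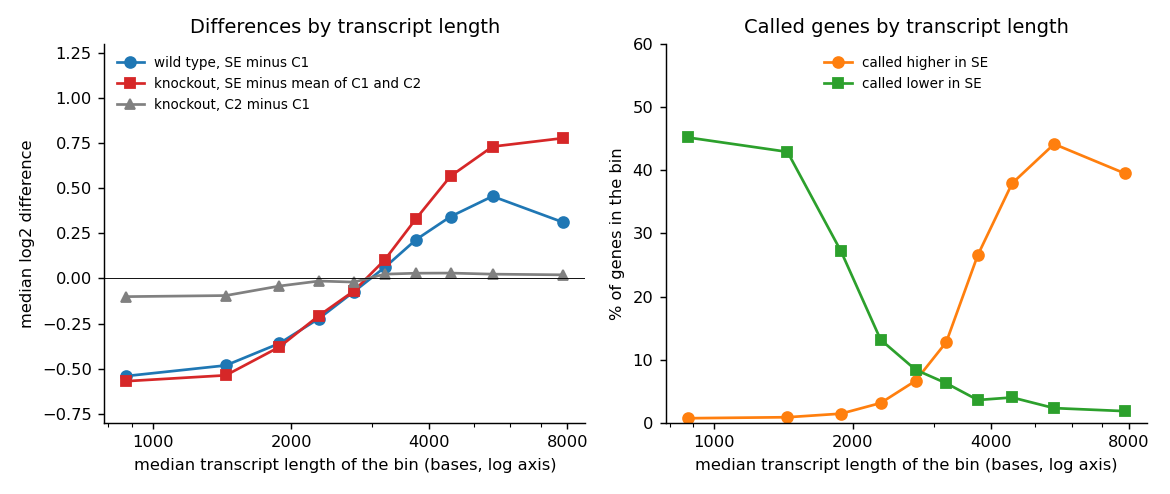
Left, the median log2 difference in 10 bins of transcript length (x axis, bases, log scale) for wild type, knockout and, for reference, knockout C2 minus C1. Right, the share of genes in each bin called higher or lower in SE; short bins hold mostly lower genes (45.2% in the shortest) and long bins mostly higher genes (44.2% in the ninth).

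A smooth function of GC content and length was therefore removed from each library, and the model was fitted again. This leaves 799 genes higher in SE (6.41% of 12470) and 509 lower (4.08%), of which 729 and 233 were called in the same direction before. The correction removes any difference shared by genes of like length, whatever its source, so both values are given below, the second as the corrected log2 fold change. After correction, wild-type and knockout differences still correlated across genes (r = 0.6005). The median over all tested genes was -0.04 before and 0.05 after correction, and lists are read against these values and against the shares of all genes called. Because the lists were chosen with earlier results of these data known, their counts and medians are descriptions and not tests.

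Col1a1 encodes the alpha 1 chain of type I collagen, the main fibre-forming collagen of bone, skin and tendon (ENSMUSG00000001506, chromosome 11, 94936224 to 94953042, plus strand, GRCm38). It had the largest increase among the named genes. Its normalised counts were 5.55 in C1 and 56.1 in SE of the wild type, and 882 in C1, 506 in C2 and 12333 in SE of the knockout. Each SE library was far above the C libraries of its genotype, 10.1-fold in wild type and 17.8-fold in knockout, although the knockout level was much higher than the wild-type level throughout. The log2 fold change was 3.79 (standard error 0.30, adjusted p = 0.00316), and 2.83 after correction (adjusted p = 0.0129).

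The list of fibrillar and associated collagens does not hold every collagen gene tested, and Col10a1 stands with the chondrogenic genes. Of the 18 tested members of the list, 13 were higher in SE and none was lower, with a median log2 fold change of 1.70. After correction 9 were higher and none lower, with a median of 0.89. Their median transcript length was 6284.5 bases, and 17 of the 18 had SE values above every C value of the same genotype, in both genotypes. Col1a2, the partner chain of Col1a1 in type I collagen, had 40.2 and 141 in wild-type C1 and SE and 2074, 1869 and 9052 in knockout C1, C2 and SE. It rose 3.50-fold and 4.59-fold (log2 fold change 2.03, standard error 0.15, adjusted p = 0.00316, corrected 1.28). Col3a1, whose type III fibres form with type I, was 3.83-fold higher in wild type and 4.15-fold in knockout, close to the same ratio in both genotypes. The basement membrane chains Col4a1 and Col4a2, which lie next to each other on chromosome 8, had log2 fold changes of 2.48 and 2.30 (corrected 1.53 and 1.25). Col4a5, another basement membrane chain, had 10.5 and 39.5 in wild-type C1 and SE and 16.7, 13.998 and 193 in knockout C1, C2 and SE, an increase of 2.86 on the log2 scale (standard error 0.37, adjusted p = 0.00511). Its ratio was 3.76 in wild type and 12.6 in knockout. Col16a1, a collagen associated with fibrils, had 50.1 and 203 in wild-type C1 and SE and 22.9, 25.5 and 157 in knockout C1, C2 and SE (log2 fold change 2.39, standard error 0.18, adjusted p = 0.00316, corrected 1.42).

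The listed collagens that lost the call after correction were Col5a1, Col6a1, Col8a1 and Col18a1, with corrected log2 fold changes of 0.20, 0.47, 0.13 and 0.49. Col6a2, Col6a3, Col7a1, Col11a1 and Col12a1 were called in neither fit. Col12a1, for example, had 3.81 and 3.37 in wild-type C1 and SE and 76.037, 69.2 and 195 in knockout C1, C2 and SE, so wild-type SE lay below C1 while knockout SE lay above both C libraries.

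Other genes with the largest increases belonged to varied processes. Atg2a, a lipid transfer protein of autophagy, had 3.69 and 13.1 in wild-type C1 and SE and 2.63, 2.31 and 32.5 in knockout C1, C2 and SE (log2 fold change 2.72, standard error 0.41, adjusted p = 0.00699, corrected 1.69). Its ratio was 3.55 in wild type and 13.2 in knockout. Ints1, the scaffold of the Integrator complex that cleaves nascent RNA, had 15.3 and 62.4 in wild-type C1 and SE and 5.64, 4.84 and 50.2 in knockout C1, C2 and SE (log2 fold change 2.65, standard error 0.29, adjusted p = 0.00369, corrected 1.55). Aldh1l2, a mitochondrial folate enzyme, had 13.3 and 32.995 in wild-type C1 and SE and 2.73, 2.04 and 35.041 in knockout C1, C2 and SE (log2 fold change 2.63, standard error 0.50, adjusted p = 0.0126, corrected 2.09). Nynrin rose by 2.77 and Flnc, a filamin of muscle, by 2.60, and Flnc was not called after correction (1.58). Mrc2, a receptor that takes up collagen, had 30.5 and 119.8 in wild-type C1 and SE and 33.6, 39.6 and 180.2 in knockout C1, C2 and SE (log2 fold change 2.15, standard error 0.15, adjusted p = 0.00316, corrected 1.21), and Mprip, which binds myosin phosphatase, rose by 2.12 (corrected 1.44). All of these transcripts were long, from 5795 bases for Mrc2 to 8939 bases for Flnc.

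Collagen processing enzymes and chaperones were split. Of 24 tested, 9 were higher and 3 lower in SE (median 0.21), and 3 were higher and 1 lower after correction (median 0.11). Loxl4, a lysyl oxidase that crosslinks collagen, had 5.55 and 23.9 in wild-type C1 and SE and 9.26, 8.78 and 37.5 in knockout C1, C2 and SE (log2 fold change 2.01, standard error 0.19, adjusted p = 0.00348, corrected 1.51). Its relative Loxl1 was 2.37-fold and 2.52-fold higher (corrected log2 fold change 0.76). Serpinh1, the collagen chaperone HSP47, rose by 0.90 on the log2 scale and by 0.99 after correction, with a transcript of 2274 bases, shorter than the median of all tested genes. Pcolce2, an enhancer of procollagen cleavage, was lower in SE (-1.70, corrected -1.9962).

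Among 24 matricellular and elastic matrix glycoproteins, 10 were higher and 2 lower (median 0.66), and 7 were higher and none lower after correction (median 0.49). Thbs1, a secreted adhesive glycoprotein that can activate TGF-beta, had 319 and 1525 in wild-type C1 and SE and 2143, 1564 and 9929 in knockout C1, C2 and SE. Both SE libraries were about equally far above their C libraries, 4.78-fold and 5.36-fold (log2 fold change 2.36, standard error 0.19, adjusted p = 0.00316, corrected 1.79). Tnc, tenascin C, had 49.9 and 303 in wild-type C1 and SE and 2.26, 0.984 and 12.9 in knockout C1, C2 and SE, so its SE increase was seen at very different levels in the genotypes (log2 fold change 2.67, standard error 0.29, adjusted p = 0.00369, corrected 1.95). Fn1, fibronectin, was 2.75-fold higher in wild-type SE and 7.64-fold higher in knockout SE (log2 fold change 2.31, corrected 1.54). The latent TGF-beta binding proteins Ltbp1, Ltbp2 and Ltbp3 rose by 1.79, 1.93 and 1.55, and by 1.35, 0.95 and 0.58 after correction. Fibrillin 1, Fbn1, was called before (1.75) and not after correction (1.08, adjusted p = 0.0962). The members lower in SE were Efemp2 and Ecm1 (-0.51 and -0.47), and neither was called after correction.

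Integrins and laminins, the receptors for matrix and the adhesive proteins of basement membranes, had 11 of 22 members higher and none lower (median 1.27). After correction 6 were higher and 1 lower (median 0.56). The laminin chain Lamb2 had 34.2 and 160.4 in wild-type C1 and SE and 48.2, 67.038 and 349 in knockout C1, C2 and SE (log2 fold change 2.44, standard error 0.18, adjusted p = 0.00316, corrected 1.51). Lamb1 and Lamc1, other laminin chains, rose by 1.59 and 1.51. Itga5, the fibronectin receptor subunit, had 112 and 335 in wild-type C1 and SE and 121, 105 and 403 in knockout C1, C2 and SE (log2 fold change 1.72, standard error 0.13, adjusted p = 0.00316, corrected 1.03). Its partner Itgb1 had 1047 and 1335 in wild-type C1 and SE and 1113, 1035 and 1431 in knockout C1, C2 and SE and was not called (0.39, adjusted p = 0.0757). Itgav rose by 1.67 (corrected 1.19), with 48.4 and 103 in wild-type C1 and SE and 57.98, 40.2 and 210.0 in knockout C1, C2 and SE. Of 23 contractile and smooth muscle genes 5 were higher and 3 lower, near the shares over all genes, and 3 were higher and none lower after correction. Vcl, vinculin, had 75.5 and 239.9 in wild-type C1 and SE and 201, 249.8 and 625 in knockout C1, C2 and SE (log2 fold change 1.55, corrected 1.07). Flna, filamin A, rose by 1.98 (corrected 1.19) and Actn1, alpha-actinin 1, by 1.45 (corrected 1.14). In the same list, the short transcripts of Acta2, Myl6 and Tpm2 were lower in SE (-0.70, -0.73 and -0.57), and none of the 3 was called after correction (-0.26, -0.12 and -0.32). The median over that list changed sign with the scaling, from -0.03 to 0.05.

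**Figure D3:**
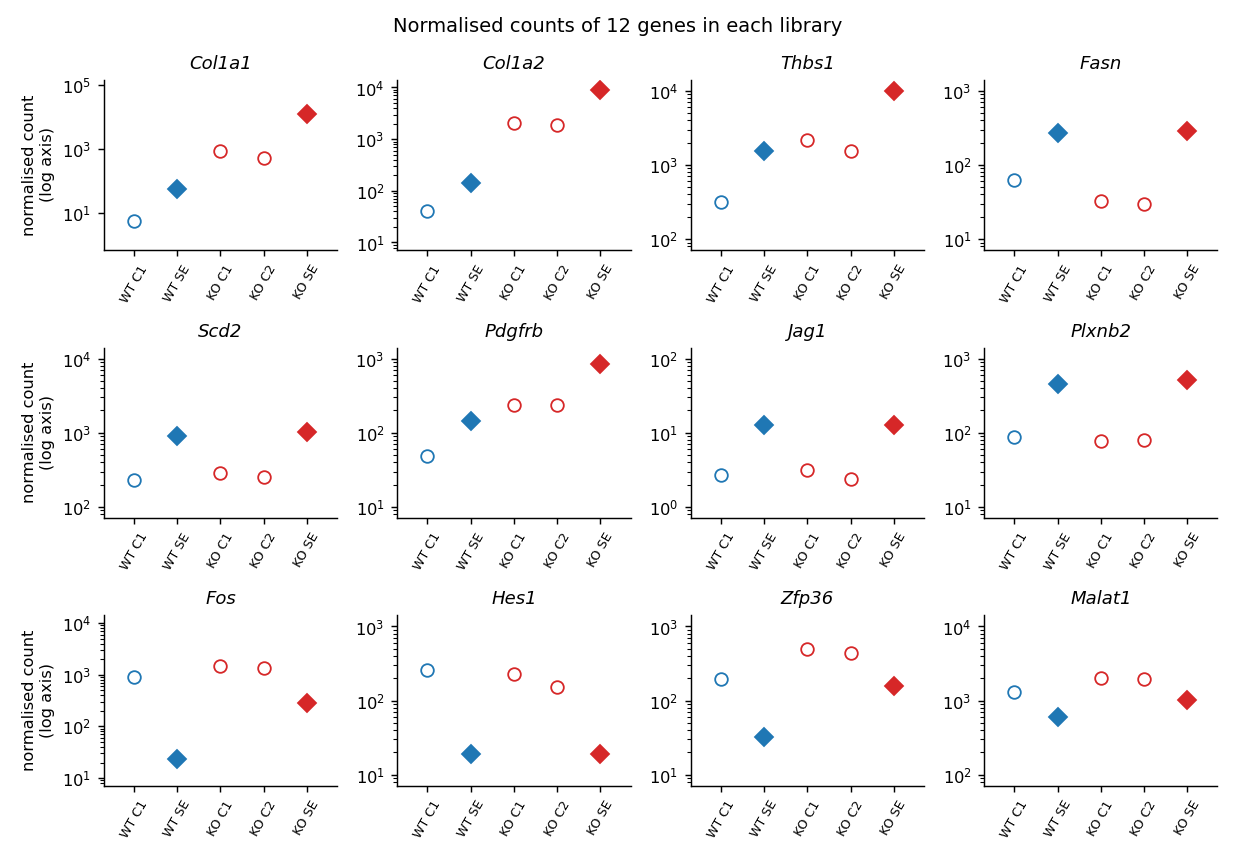
Normalised counts of 12 genes in each library (y axis, log scale; open circles are C libraries, filled diamonds SE libraries, blue wild type, red knockout). In the first 8 panels each SE library lies above the C libraries of its genotype, and in the last 4 panels it lies below.

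Of 13 fatty acid synthesis genes, 9 were higher in SE and none lower (median 0.89), and 6 were higher after correction (median 0.54). Fasn, fatty acid synthase, which builds palmitate (ENSMUSG00000025153, chromosome 11, 120805846 to 120824547, minus strand, GRCm38), had 63.7 in C1 and 270.4 in SE of the wild type, and 32.4 in C1, 29.4 in C2 and 283 in SE of the knockout. Both SE libraries reached nearly the same level from different C levels, 4.24-fold higher in wild type and 9.16-fold in knockout (log2 fold change 2.71, standard error 0.24, adjusted p = 0.00316, corrected 1.72). Scd2, a desaturase that makes monounsaturated fatty acids, had 233 and 919 in wild-type C1 and SE and 289.8, 251 and 1010.2 in knockout C1, C2 and SE, and its ratios of 3.94 and 3.74 were close in the genotypes (log2 fold change 1.94, standard error 0.13, adjusted p = 0.00316, corrected 1.41). The desaturase Scd1 was 2.77-fold and 2.86-fold higher (corrected log2 fold change 1.11). Acly, which supplies cytosolic acetyl-CoA, had 206 and 571 in wild-type C1 and SE and 207, 211 and 559.5 in knockout C1, C2 and SE (log2 fold change 1.44, standard error 0.11, adjusted p = 0.00316, corrected 1.01). Srebf1, the gene of the transcription factor SREBP-1 that drives these enzymes, was higher before correction (1.26) and not called after it (0.54, adjusted p = 0.0519). Elovl5, Elovl6, Acsl3 and Me1 were called in neither fit.

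Among 25 genes of cholesterol synthesis and uptake, 11 were higher and 1 lower (median 0.63), and 9 were higher and none lower after correction (median 0.57). Their median transcript length of 3027 bases was near that of all tested genes. Hmgcs1, an early enzyme of cholesterol synthesis, had 136 and 306 in wild-type C1 and SE and 245, 203 and 381 in knockout C1, C2 and SE (log2 fold change 0.94, standard error 0.15, adjusted p = 0.00821, corrected 0.98). Insig1, which holds SREBP in the endoplasmic reticulum when sterols are plentiful, rose by 0.77 (corrected 0.99), and Dhcr7, the last enzyme of one branch of the pathway, by 1.17 (corrected 1.23). Srebf2, which encodes SREBP-2, rose by 1.22 before correction and was not called after it (0.40). Idi1, Fdps and Msmo1 were called after correction only (1.01, 1.11 and 0.71). Ebp was lower in SE before correction (-0.79) and not called after it (-0.28).

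The sterol regulatory element core TCACCCCAC, searched on both strands in the 250 bases before and 50 after the RefSeq starts of genes (GRCm38.p6), was in a promoter window of 1 of 17 cholesterol genes with an entry, of none of 10 fatty acid synthesis genes and of 0.555% of all 27025 genes. The 250 bases before the start of Hmgcs1 are shown because that gene was called in both fits, with the core in capitals. The sequence is 5' to 3' on the plus strand, chr13:119690101-119690350, from RefSeq.
Hmgcs1: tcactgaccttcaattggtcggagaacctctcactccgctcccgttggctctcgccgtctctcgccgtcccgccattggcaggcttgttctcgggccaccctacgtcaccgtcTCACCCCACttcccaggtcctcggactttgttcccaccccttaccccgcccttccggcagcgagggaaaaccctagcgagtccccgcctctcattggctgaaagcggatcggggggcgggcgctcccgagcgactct
The match at position -137 from the start is a description of these letters, and the factor's binding was not measured.

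**Figure D4:**
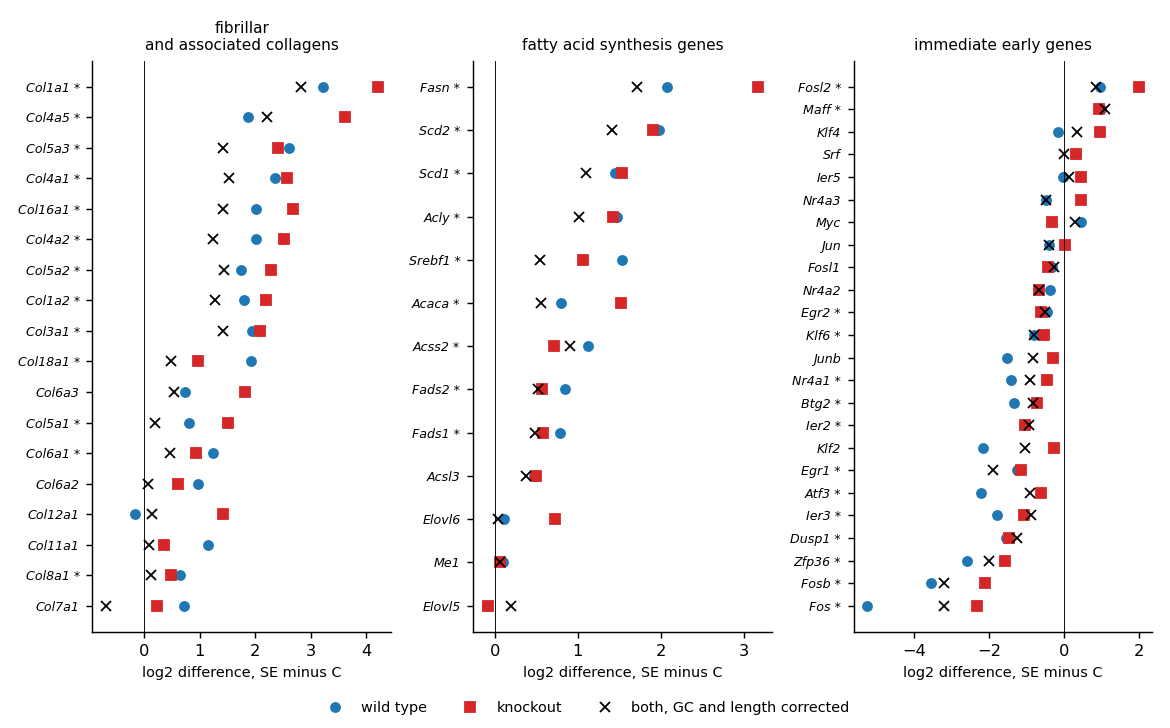
Members of 3 lists (collagens, fatty acid synthesis and immediate early genes), with the log2 difference of SE minus C in wild type (blue circles) and knockout (red squares) and the corrected log2 fold change of both (crosses) on the x axis. Asterisks mark genes called before correction; in the collagen panel 13 of 18 have one, and in the immediate early panel 12 are lower and 2 higher.

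Of 24 immediate early genes tested, 12 were lower in SE and 2 higher, and Fos, Fosb and Zfp36 were among the 10 named genes with the largest decreases. The list had a median log2 fold change of -0.73. After correction 7 were lower and 1 higher, and the median was -0.81, farther from 0 than before. Fos, a subunit of the AP-1 transcription factor (ENSMUSG00000021250, chromosome 12, 85473890 to 85477273, plus strand, GRCm38), had 888 in C1 and 22.9 in SE of the wild type, and 1510.3 in C1, 1342 in C2 and 285 in SE of the knockout. Each SE library was below the C libraries of its genotype, 38.7-fold in wild type and 5.01-fold in knockout (log2 fold change -3.57, standard error 0.57, adjusted p = 0.00832, corrected -3.20). Fosb, its close relative, had 15.7 and 0.881 in wild-type C1 and SE and 16.5, 13.6 and 3.08 in knockout C1, C2 and SE (log2 fold change -2.73, standard error 0.36, adjusted p = 0.00530, corrected -3.21), and the wild-type SE value rests on 17 reads. Egr1, a zinc finger factor, had 1374 and 582 in wild-type C1 and SE and 2002, 1734 and 850.4 in knockout C1, C2 and SE. Its ratios in the genotypes were close (0.424 and 0.455), and with a transcript of 4484 bases its log2 fold change went from -1.18 to -1.88 with the correction.

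Zfp36, which binds AU-rich messenger RNAs and speeds their decay, had 196 and 32.4 in wild-type C1 and SE and 491, 432 and 155 in knockout C1, C2 and SE (log2 fold change -1.9997, standard error 0.23, adjusted p = 0.00393, corrected -1.9994). Dusp1, a phosphatase that switches off MAP kinases, had 1568 and 536 in wild-type C1 and SE and 856, 751 and 288 in knockout C1, C2 and SE, 2.92-fold lower in wild type and 2.79-fold in knockout (log2 fold change -1.51, standard error 0.13, adjusted p = 0.00316, corrected -1.24). Ier2, a nuclear early response protein, had 468 and 223 in wild-type C1 and SE and 467, 479 and 229 in knockout C1, C2 and SE, with both SE libraries at nearly the same level (log2 fold change -1.05, standard error 0.11, adjusted p = 0.00369, corrected -0.93). Klf6 fell by 0.65 (corrected -0.81). Ier3, Btg2, Nr4a1, Egr2 and Atf3 were lower before correction (-1.38, -0.99, -0.86, -0.54 and -1.30) and were not called after it. Junb, Jun, Klf2, Myc, Srf and Fosl1 were called in neither fit, and Jun had 531 and 407 in wild-type C1 and SE and 131, 176 and 156 in knockout C1, C2 and SE. The members higher in SE were Fosl2, another AP-1 subunit, with 36.2 and 71.2 in wild-type C1 and SE and 30.5, 30.985 and 124 in knockout C1, C2 and SE (log2 fold change 1.56, standard error 0.24, adjusted p = 0.00710, corrected 0.85), and Maff, called before correction only (0.96).

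Promoter windows of 20 immediate early genes were in the RefSeq table. A CArG box, the site of serum response factor, was in windows of 3 of the 20 and of 1.62% of all genes, and the cyclic AMP response element TGACGTCA, which reads alike on both strands, was in windows of 3 and of 1.77%. The CArG box genes were Zfp36, Egr2 and Srf, and the response element genes were Dusp1, Btg2 and Maff. Srf was not called and Maff was higher in SE, so a motif in the window did not go with a decrease in each of the 6. The windows of Zfp36, Dusp1 and Btg2 are shown as examples from genes that were lower in SE before correction. Egr2, also lower then, had its box in several windows from different starts, and none of these is printed. Each sequence is the 250 bases before the start, 5' to 3' on the gene's own strand (minus for all 3), from RefSeq, GRCm38.p6, with the motif in capitals. Zfp36 is at chr7:28379229-28379478 with a CArG box at position -58 from the start, Dusp1 at chr17:26508473-26508722 with a cyclic AMP response element at -143, and Btg2 at chr1:134079156-134079405 with one at -166.
Zfp36: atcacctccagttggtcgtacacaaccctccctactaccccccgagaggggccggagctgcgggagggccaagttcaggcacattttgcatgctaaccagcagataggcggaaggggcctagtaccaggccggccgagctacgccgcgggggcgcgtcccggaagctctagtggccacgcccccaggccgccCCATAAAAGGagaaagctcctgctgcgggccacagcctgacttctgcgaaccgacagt
Dusp1: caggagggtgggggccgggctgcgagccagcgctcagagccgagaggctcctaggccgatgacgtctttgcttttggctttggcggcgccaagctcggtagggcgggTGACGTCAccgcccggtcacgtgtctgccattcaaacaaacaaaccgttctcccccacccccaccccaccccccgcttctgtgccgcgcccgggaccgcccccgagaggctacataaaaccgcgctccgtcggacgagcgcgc
Btg2: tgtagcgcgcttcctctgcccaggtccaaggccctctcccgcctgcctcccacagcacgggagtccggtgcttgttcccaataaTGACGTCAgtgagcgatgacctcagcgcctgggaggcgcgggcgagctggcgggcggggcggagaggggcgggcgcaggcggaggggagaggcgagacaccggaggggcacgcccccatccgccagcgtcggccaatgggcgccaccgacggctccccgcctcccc
None of the 3 windows held more than 1 match to the motifs searched.

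Hes1, a repressor that Notch signalling induces (ENSMUSG00000022528, chromosome 16, 30064384 to 30067796, plus strand, GRCm38), was lower in SE to the same level in both genotypes. Its normalised counts were 260.3 in C1 and 18.958 in SE of the wild type, and 226 in C1, 155 in C2 and 18.99 in SE of the knockout, a decrease of 13.7-fold and 10.019-fold (log2 fold change -3.47, standard error 0.20, adjusted p = 0.00316, corrected -2.89). Of 12 Notch genes tested, Hes1 among them, 5 were higher and 3 lower before correction (median 0.78). After it 2 were higher and 1, Hes1 itself, was lower (median 0.32). The ligand Jag1 had 2.72 and 12.8 in wild-type C1 and SE and 3.10, 2.38 and 12.9 in knockout C1, C2 and SE, so both SE values were nearly equal and above all C values (log2 fold change 2.05, standard error 0.24, adjusted p = 0.00403, corrected 1.53). The receptors Notch1 and Notch2 rose by 2.12 and 1.41 and were not called after correction (1.16 and 0.65). Their transcripts are long (9488 and 10500 bases). Hes6 and the target Hey1 were lower before correction (-0.67 and -1.18) and not called after it. Id1, Id2 and Id3, targets of BMP signalling, were also lower before correction (-1.57, -1.40 and -1.45) and not after it (-1.07, -0.82 and -1.03).

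Of 10 tested chemokine genes 3 were lower in SE and none higher (median -0.76), and 1 was lower after correction (median -0.35). The 17 tested NF-kB genes and inflammatory mediators were split, with 4 higher and 4 lower (median 0.13), and none higher and 2 lower after correction (median 0.15). Cxcl1, a neutrophil chemokine, had 40.8 and 3.68 in wild-type C1 and SE and 34.1, 39.5 and 12.039 in knockout C1, C2 and SE (log2 fold change -2.31, standard error 0.38, adjusted p = 0.00854). The corrected value was -1.49, with an adjusted p of 0.0605. Ccl9 had 21.5 and 11.1 in wild-type C1 and SE and 333, 359 and 148 in knockout C1, C2 and SE and was lower in both fits (-1.09, corrected -0.85). Ccl2, a monocyte chemokine, fell by 1.03 before correction and had -0.15 after it (transcript of 813 bases). Cxcl12, the chemokine that holds blood stem cells in the marrow, had 115 and 120.0 in wild-type C1 and SE and 12788, 14071 and 8179 in knockout C1, C2 and SE and was not called (-0.38). Il6, the gene of interleukin-6, had 12.3 and 3.42 in wild-type C1 and SE and 9.12, 5.41 and 1.58 in knockout C1, C2 and SE (log2 fold change -1.79, standard error 0.29, adjusted p = 0.00860, corrected -0.95 with an adjusted p of 0.0610). Il1rn, the interleukin-1 receptor antagonist, had 59.5 and 25.1 in wild-type C1 and SE and 2403, 3349.7 and 1206 in knockout C1, C2 and SE and was lower in both fits (-1.23, corrected -0.83). Csf1, Nfkb2 and Tnfaip3 were higher before correction only (1.12, 0.85 and 1.04). Of 27 interferon-stimulated genes 2 were higher and 3 lower, and none was called after correction. The shares over all genes were 17.4% higher and 15.5% lower before correction, and 6.41% and 4.08% after it. The interferon counts lay below these shares.

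Genes of growth factor and Wnt signalling were called in part. Pdgfrb, the receptor for platelet-derived growth factor B, had 49.043 and 145 in wild-type C1 and SE and 239.8, 239.5 and 860.0 in knockout C1, C2 and SE (log2 fold change 1.72, standard error 0.12, adjusted p = 0.00316, corrected 0.99). Fgfr1 rose by 1.40 (corrected 0.70), and Pdgfra by 0.93 before correction only (corrected 0.33). Vegfa, which drives vessel growth, rose by 0.94. Its corrected value of 1.60 is uncertain, because the annotation's principal transcript was only 654 bases. The ligand Pdgfa was lower before correction (-0.51). Of 25 genes of the PDGF, FGF and VEGF families, 7 were higher and 2 lower (median 0.30), against 5 and 1 after correction (median 0.34). Of 33 Wnt genes 8 were higher and none lower (median 0.37), against 4 and none after correction (median 0.01, below the 0.05 of all genes). Over all genes 17.4% were higher before correction and 6.41% after it. The Wnt receptors Fzd1 and Fzd7 had nearly equal ratios in both genotypes: Fzd1 was 3.36-fold and 3.12-fold higher (corrected log2 fold change 1.12) and Fzd7 3.23-fold and 3.35-fold (corrected 1.18). Tgfbr2, the type II TGF-beta receptor, had 108 and 275 in wild-type C1 and SE and 53.1, 72.6 and 133 in knockout C1, C2 and SE (log2 fold change 1.20, standard error 0.17, adjusted p = 0.00580, corrected 0.90). Plxnb2, a semaphorin receptor, had the smallest p among higher genes, with 87.6 and 453 in wild-type C1 and SE and 78.1, 79.8 and 518 in knockout C1, C2 and SE (log2 fold change 2.56, standard error 0.13, adjusted p = 0.00316, corrected 1.63).

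YAP and TEAD are factors that respond to cell spreading and stiffness. The list of their targets, which also holds the pathway genes Yap1, Wwtr1, Tead1, Tead4 and Wwc1, had 9 of 27 members higher and 1 lower (median 0.44). After correction 4 were higher and 1 lower (median 0.36). Among all tested genes 17.4% were higher and 15.5% lower before correction, and 6.41% and 4.08% after it. Amotl2 had 83.98 and 257 in wild-type C1 and SE and 414, 341 and 1034 in knockout C1, C2 and SE (log2 fold change 1.52, standard error 0.14, adjusted p = 0.00316, corrected 0.88). The kinase gene Lats2 rose by 1.82 (corrected 1.26). Ctgf and Cyr61, the targets most often used to read out this pathway, had 137 and 182 in wild-type C1 and SE and 1581, 719 and 1470.4 in knockout C1, C2 and SE and 1129.8 and 1238 in wild-type C1 and SE and 3619.5, 2583 and 2289 in knockout C1, C2 and SE, and neither was called (log2 fold changes 0.44 and -0.18).

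Genes of short, abundant messenger RNAs were lower in SE almost throughout before correction and mostly not after it. Of 43 cytosolic ribosomal protein genes 39 were lower and none higher (median -0.62, median length 937 bases). After correction 1 was lower, and the median was -0.08. Rps6 had 350.1 and 212 in wild-type C1 and SE and 148, 123 and 70.1 in knockout C1, C2 and SE, lower in SE in both genotypes (log2 fold change -0.85, standard error 0.14, adjusted p = 0.00817, corrected -0.14). Many ribosomal protein genes have near-identical pseudogenes, so their counts are uncertain. Of 29 nuclear genes of the respiratory chain 26 were lower (median -0.62, median length 1166 bases), and 1 after correction (median -0.08). Cox6b1, a subunit of cytochrome c oxidase, had 349.9 and 180.4 in wild-type C1 and SE and 424, 408 and 208 in knockout C1, C2 and SE (log2 fold change -0.98, standard error 0.11, adjusted p = 0.00393, corrected -0.28 with an adjusted p of 0.138). For the 9 mitochondrially encoded genes none was called, and the medians were -0.62 before and 0.21 after correction. The genotypes differed here before correction, with a median of -1.30 in wild type and -0.10 in knockout.

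NRF2 and antioxidant genes had 19 of 28 members lower and none higher (median -0.64), and 3 lower after correction (median -0.26), namely Sod2, Srxn1 and Gclm. Nqo1, a quinone reductase and standard NRF2 target, had 713 and 358 in wild-type C1 and SE and 45.2, 50.6 and 22.1 in knockout C1, C2 and SE (log2 fold change -1.05, standard error 0.12, adjusted p = 0.00393), and its corrected value was -0.41 with an adjusted p of 0.0884. Sod2, mitochondrial superoxide dismutase, was lower in both fits (-0.67, corrected -1.05). Of 28 lysosome and autophagy genes 8 were lower and 4 after correction. All tested genes had 17.4% higher and 15.5% lower before correction, and 6.41% and 4.08% after it. The protease gene Ctsl had 1660.0 and 854 in wild-type C1 and SE and 1047, 1068 and 735 in knockout C1, C2 and SE (-0.71, corrected -1.16), and Npc2, which carries cholesterol in the lysosome, had 178 and 109.9 in wild-type C1 and SE and 672, 951 and 419.9 in knockout C1, C2 and SE (-0.83, corrected -0.93). Glycolysis and hypoxia genes had 3 of 29 members higher and 11 lower (median -0.31), and 3 higher and 2 lower after correction (median -0.31). The glycolytic enzyme genes Gapdh, Ldha and Pgk1 were lower before correction (-0.91, -0.83 and -0.81) and not called after it (-0.59, -0.33 and -0.31), whereas Gpi1 was lower in both fits (-0.77, corrected -0.78). Hk2 rose before correction only (0.79), and Kdm3a, a histone demethylase induced by low oxygen, rose in both fits (0.97, corrected 0.62).

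The nuclear RNA Malat1, a long transcript, was lower in SE with 1302 and 602 in wild-type C1 and SE and 1987, 1937 and 1005 in knockout C1, C2 and SE. Its log2 fold change of -1.03 went to -1.48 with the correction (transcript of 6983 bases, standard error 0.14 and adjusted p = 0.00584 before it). Gas5, a host of small nucleolar RNAs, fell by 0.55 before correction and had 0.13 after it. The keratin gene Krt13 had 28.4 and 7.61 in wild-type C1 and SE and 2.63, 2.38 and 0.287 in knockout C1, C2 and SE (log2 fold change -1.89, standard error 0.24, adjusted p = 0.00498, corrected -1.52), and the knockout SE value rests on 4 reads. Nrn1, Prl2c2 and Aldh3a1 were also among the largest decreases (-1.89, -1.85 and -1.79) and were not called after correction. Knockout C1 and C2 differed widely for them, with 17.2 and 65.5 for Nrn1, and Prl2c2 belongs to a family of near-identical genes whose reads could be split.

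**Figure D5:**
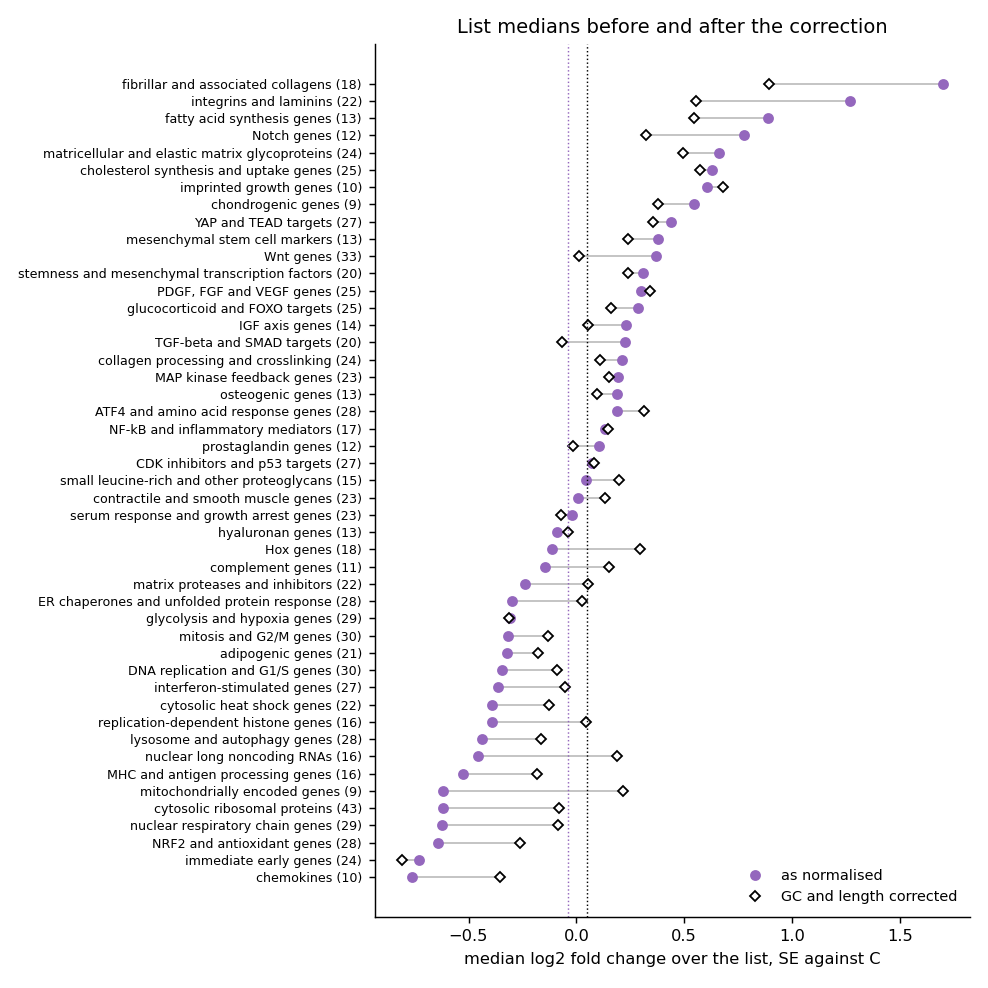
Median log2 fold change of SE against C over each of 47 gene lists (number of tested members in brackets), before (circles) and after (diamonds) the GC and length correction; dotted lines are the medians over all tested genes. Collagens stay farthest above 0 (1.70 and 0.89) and immediate early genes farthest below after correction (-0.81), while ribosomal protein genes go from -0.62 to -0.08.

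The list of endoplasmic reticulum chaperone and stress response genes, which also holds Crip1, had 6 of 28 members higher and 7 lower (median -0.30). The shortest transcript among the higher members was that of Syvn1, a ubiquitin ligase (3464 bases), and the longest among the lower members was that of Pdia3, a disulfide isomerase (2770 bases). After correction 1 was higher, Hyou1 (0.62), and 1 lower (median 0.03). Over all genes 17.4% were higher and 15.5% lower before correction, and 6.41% and 4.08% after it. Genes of the ATF4 response to amino acid shortage had 8 of 28 members higher and 2 lower (median 0.19), and 4 higher and 1 lower after correction (median 0.31). Aldh18a1, an enzyme of proline synthesis, had 123 and 244 in wild-type C1 and SE and 75.5, 82.2 and 133 in knockout C1, C2 and SE (log2 fold change 0.85, standard error 0.12, adjusted p = 0.00650, corrected 0.58). Slc7a5, a carrier of large neutral amino acids, rose by 1.43 (corrected 1.01), and Trib3 by 1.46 (corrected 1.55). Nupr1 was lower in both fits (-1.16, corrected -0.65).

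Counts for lineage and cell cycle genes stand beside 17.4% higher and 15.5% lower over all genes. None of 13 osteogenic and none of 9 chondrogenic genes was called in either fit. Of 21 adipogenic genes 1 was higher, Scd1, and 2 lower, and Fabp4, the fat cell lipid carrier, had 5.92 and 3.52 in wild-type C1 and SE and 408, 489 and 278 in knockout C1, C2 and SE (log2 fold change -0.68, standard error 0.14, adjusted p = 0.0144). Its corrected value was 0.23, of opposite sign. Of 30 genes of mitosis 2 were lower and none higher (median -0.32), and of 30 genes of DNA replication 3 were higher and 4 lower (median -0.34), the latter near the share of all genes called lower. The replication polymerase subunit Pole was higher in both fits (1.66, corrected 1.01). Of 13 mesenchymal stem cell markers 4 were higher (Pdgfrb, Pdgfra, Eng and Itgav) and 1 lower (Ly6a, the stem cell antigen Sca-1, -1.01 and -0.28 after correction). Summed markers of fibroblasts and stroma, which include Col1a1, Col1a2 and Col3a1, were 1981 and 3893 in wild-type C1 and SE and 3720, 3218 and 23322 in knockout C1, C2 and SE. Col1a1 and Col1a2 gave 12333 and 9052 of the sum in knockout SE. Of the 8 markers tested 4 were higher and none lower, with a median log2 fold change of 0.54 and a lowest of -0.57. Fewer cells of a type and less RNA per cell cannot be told apart in such bulk libraries.

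The difference between genotypes in the SE against C contrast was tested in a model with 1 residual degree of freedom, from knockout C1 and C2. No gene passed an adjusted p of 0.05 by limma, and 327 had an unadjusted p under 0.05. edgeR on recovered whole reads called none either, with 361 at an unadjusted p under 0.05, and DESeq2 called only Fos (adjusted p = 1.09e-08), with 110. Each of these counts of unadjusted p is below a share of 0.05 of the 12484 genes tested. The genes that follow were picked for small unadjusted p, and none but Fos was called by any method. For Fos the decrease was larger in wild type (-5.24 on the log2 scale) than in knockout (-2.32), a difference of 2.92 (standard error 0.27). Klf2, a factor induced by flow and statins, had 44.7 and 9.69 in wild-type C1 and SE and 248, 235 and 202 in knockout C1, C2 and SE, a difference of 1.89 (unadjusted p = 0.00402). Sox9, the cartilage regulator, had 184 and 127 in wild-type C1 and SE and 13.2, 14.3 and 36.8 in knockout C1, C2 and SE, lower in SE in wild type and higher in knockout (1.93, unadjusted p = 0.00550). Fbn1 had 31.6 and 47.4 in wild-type C1 and SE and 35.8, 33.1 and 215 in knockout C1, C2 and SE, with the larger increase in knockout (2.05, unadjusted p = 0.00424). In the other direction Ak4, an adenylate kinase, had 6.48 and 18.2 in wild-type C1 and SE and 4.89, 6.58 and 4.01 in knockout C1, C2 and SE, a difference of -1.87 (unadjusted p = 0.0291). Bcl3 had 27.5 and 38.6 in wild-type C1 and SE and 7.62, 6.39 and 3.01 in knockout C1, C2 and SE, a difference of -1.58 (unadjusted p = 0.0276). With this design a difference that misses the threshold does not show that the genotypes respond alike.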

How the data were processed

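Single-end 75 bp reads of poly(A) RNA from 5 libraries came from a kit that marks strand, per the labels' protocols. The submitters' processing notes name edgeR, featureCounts 1.5.2 and STAR 2.5, and the genome build, annotation and use of strand are not given in the sources used here, so overlapping and antisense genes are uncertain. The deposited values are a signal per gene, that is read counts scaled by the authors to library size (column totals 931660 to 1052926, with TMM library sizes). Whole reads were recovered for 100% of values within 0.02 of a read. Libraries held 13605555 to 26658725 reads, and this depth covers counting error only.

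Columns were placed in the wild type or knockout by name and carry no replicate number. The test was limma 3.58.1 (eBayes with a variance trend) on log2 values, after adding a pseudocount of 0.5, with genotype as block and suffix as tested term (2 residual degrees of freedom), adjusted by Benjamini-Hochberg over 12484 genes at a threshold of 0.05. Fold changes are on that log2 scale, which understates changes of low genes. Ratios in the text are of deposited values, with the mean of C1 and C2 in knockout. The difference between genotypes had 1 residual degree of freedom. Length and GC content came from the APPRIS principal transcript in GENCODE M21 (GRCm38), matched by Ensembl identifier for 12607 genes, and were removed per library with splines of 5 degrees of freedom. The use of the principal transcript in place of the longest one was chosen after seeing the data. Named genes were Tnfaip6 and, in each direction, the 10 largest changes and the 5 smallest p-values. These came from called genes with SE beyond every C library of the same genotype, in both genotypes. They also had a mean of at least 5 and no predicted-gene name. Up to 2 called members of each list and 6 genes in each direction of the difference were named too. Some members that this rule chose are not reported here. Further list members were named after their values were seen. The members and the 47 gene lists were chosen with earlier results of these data known. Alternatives covered scaling, pseudocount, filter, variance model, edgeR 4.0.16, DESeq2 1.42.0 and leaving out each library. The scripts were tested on simulated data. Promoter sequences are from RefSeq (GRCm38.p6).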

Additional observations from a re-analysis of the deposited data

How the results depend on the processing

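With 1 SE library per genotype, the calls depend on every SE library. Leaving out 1 library at a time gave 0 to 2517 higher and 0 to 2567 lower genes, against 2166 and 1932. The counts of 0 came without wild-type C1, wild-type SE or knockout SE (limma, with 3251, 3270 and 1847 genes at an unadjusted p under 0.05). Without the genotype block no gene was called higher or lower (0 and 0, with 1444 at an unadjusted p under 0.05). The GC and length correction left 799 and 509, or 988 and 690 with the longest transcript, a version added after the data were seen. Without a variance trend 812 genes were lower and 1709 higher. edgeR called 2124 and 1818, DESeq2 2161 and 2555, and other scalings, pseudocounts and filters gave 1875 to 2186 higher and 1873 to 2301 lower genes. The difference between genotypes had 1 call with DESeq2 and 0 under each other alternative run.

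Of 99 named block results, 59 kept their direction and call with the GC and length correction, 36 lost the call and 4 changed sign. Signs changed for the Tnfaip6 log2 fold change (0.14, and 0.19 with the longest transcript), the Fabp4 log2 fold change (0.23), the Gas5 log2 fold change (0.13) and the Slco2a1 log2 fold change (-0.0854, and -0.0619 with the longest transcript). With the longest transcript alone they changed for the B2m log2 fold change (0.0320) and the Hspe1 log2 fold change (0.0909). The causes of these changes were not tested. No paired analysis was possible because the columns carry none of the replicate numbers of the sample titles. Replicate depth limits low genes, since 1 read was worth 0.0378 to 0.0717 normalised counts.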

Other observations

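Irs1, the adaptor of insulin and IGF receptors, had 3.36 and 9.69 in wild-type C1 and SE and 8.65, 13.1 and 41.1 in knockout C1, C2 and SE (log2 fold change 1.69, standard error 0.26, adjusted p = 0.00770, corrected 1.02). Igf2r, the imprinted receptor that clears IGF2, had 20.995 and 39.4 in wild-type C1 and SE and 6.87, 10.1 and 40.5 in knockout C1, C2 and SE (log2 fold change 1.65, standard error 0.33, adjusted p = 0.0145), and was not called after correction (0.96, adjusted p = 0.0737). Of 14 IGF axis genes 3 were higher and 1 lower, against 1 and 1 after correction, and of 22 matrix proteases and inhibitors 5 were higher and none lower, against 1 and none after correction. The shares higher before correction are near the 17.4% of all genes. The protease called after correction was Adamts1, an aggrecan-cleaving protease, with 46.2 and 107 in wild-type C1 and SE and 193, 164 and 706 in knockout C1, C2 and SE (log2 fold change 1.65, standard error 0.20, adjusted p = 0.00402, corrected 1.19).

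Per2, a clock gene, had 2.39 and 7.87 in wild-type C1 and SE and 6.11, 6.92 and 23.4 in knockout C1, C2 and SE, higher in SE in both genotypes (log2 fold change 1.67, standard error 0.23, adjusted p = 0.00557, corrected 0.95). Spred1, an inhibitor of Ras signalling, had 136 and 313 in wild-type C1 and SE and 23.6, 25.2 and 86.6 in knockout C1, C2 and SE (log2 fold change 1.55, standard error 0.17, adjusted p = 0.00369, corrected 1.17). Of 18 Hox genes 1 was higher, Hoxa3, and 1 lower, Hoxa9, before correction (1.18 and -0.55), beside 17.4% and 15.5% of all genes. Neither was called after correction, when 2 other Hox genes were higher and none lower. The wild-type C1 value of Hoxa3 rests on 4 reads. Among 15 small leucine-rich and other proteoglycans Hspg2, perlecan, was called before correction only (1.68, corrected 0.68) and Vcan, versican, after correction only (0.55, corrected 0.90). Ptgr1, which reduces prostaglandins and leukotrienes, was lower in both fits (-0.90, corrected -0.53).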
